A study of Rattus norvegicus with 12 samples.

Results

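The neuromuscular junction genes described here are 10 in number. They comprise the 5 muscle acetylcholine receptor subunits (Chrna1, Chrnb1, Chrnd, Chrne and Chrng), 4 organisers of the postsynaptic membrane (Musk, Rapsn, Lrp4 and Dok7) and acetylcholinesterase (Ache). They were taken by symbol from a table of raw counts with 24648 gene rows. Each symbol stood on a single row, and all 10 were among the 14225 genes with enough counts to be tested. RNA-seq libraries were made from skeletal muscle of male rats aged 540 days. The restriction rats were born to dams given a diet of 6% protein through pregnancy and suckling, and the control rats to dams on a control diet of unstated protein content. The 12 libraries formed 4 groups of 3: set 2 restriction (libraries 32, 33 and 35), set 2 control (23, 28 and 29), set 1 restriction (12, 13 and 15) and set 1 control (3, 8 and 9), named by the number in each title. The study names soleus, a slow muscle, and extensor digitorum longus, a fast one, but the labels do not say which library came from which, and the sets keep their numbers. The labels name no strain, dam, litter or animal. The p-values below therefore reflect library-to-library spread only, part of which may be technical, and some rats may be littermates. Some rats may also have given a library to each set, and the main fit takes all 12 libraries as independent.

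At the neuromuscular junction the motor nerve releases acetylcholine onto a pentameric receptor channel in the muscle membrane. In rodents the fetal form of the channel holds the gamma subunit (Chrng), which the epsilon subunit (Chrne) replaces in the adult junction, while alpha (Chrna1), beta (Chrnb1) and delta (Chrnd) belong to both forms. Agrin from the nerve binds Lrp4, which activates the kinase MuSK together with the adaptor Dok7, and rapsyn (Rapsn) then anchors receptors in clusters. Acetylcholinesterase ends transmission by cleaving acetylcholine, and a collagen tail, ColQ, holds it in the cleft. In denervated or inactive rodent muscle, subunit genes are transcribed along the whole fibre and not only beneath the nerve.

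The promoters of the 5 subunit genes are shown because these genes divided into a group that differed strongly between the sets and a group that was not called. Each window runs from 250 bases before to 50 bases after the RefSeq start, on build GRCr8, 5′ to 3′ on the gene's strand. Capitals mark the E-box CANNTG, a letter pattern bound by myogenic factors such as myogenin, and the N-box CCGGAA, a pattern known from synaptic genes, which reads TTCCGG where it lies on the opposite strand.
Chrna1: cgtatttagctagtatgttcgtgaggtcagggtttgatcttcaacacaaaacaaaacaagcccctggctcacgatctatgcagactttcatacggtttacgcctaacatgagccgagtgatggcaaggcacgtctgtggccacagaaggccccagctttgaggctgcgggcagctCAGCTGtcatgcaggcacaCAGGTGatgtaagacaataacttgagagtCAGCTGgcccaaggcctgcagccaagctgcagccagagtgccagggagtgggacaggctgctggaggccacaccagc
Chrnd: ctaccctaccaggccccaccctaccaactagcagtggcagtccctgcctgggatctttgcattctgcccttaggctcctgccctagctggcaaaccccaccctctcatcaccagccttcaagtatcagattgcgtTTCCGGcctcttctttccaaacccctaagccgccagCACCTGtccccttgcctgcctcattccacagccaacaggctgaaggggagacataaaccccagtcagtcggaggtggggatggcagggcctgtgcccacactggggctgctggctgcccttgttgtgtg
Chrng: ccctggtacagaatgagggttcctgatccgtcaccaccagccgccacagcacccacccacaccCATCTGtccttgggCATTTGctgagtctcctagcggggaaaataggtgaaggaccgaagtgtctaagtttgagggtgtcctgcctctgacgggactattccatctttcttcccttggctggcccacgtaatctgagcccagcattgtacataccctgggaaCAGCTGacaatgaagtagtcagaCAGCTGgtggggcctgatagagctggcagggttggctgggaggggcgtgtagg
Chrnb1: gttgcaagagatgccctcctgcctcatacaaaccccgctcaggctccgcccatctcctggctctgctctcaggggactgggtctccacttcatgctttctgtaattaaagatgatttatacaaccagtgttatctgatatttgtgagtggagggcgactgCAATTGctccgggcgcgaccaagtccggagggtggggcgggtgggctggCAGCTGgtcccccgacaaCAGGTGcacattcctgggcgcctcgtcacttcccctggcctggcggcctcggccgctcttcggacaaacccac
Chrne: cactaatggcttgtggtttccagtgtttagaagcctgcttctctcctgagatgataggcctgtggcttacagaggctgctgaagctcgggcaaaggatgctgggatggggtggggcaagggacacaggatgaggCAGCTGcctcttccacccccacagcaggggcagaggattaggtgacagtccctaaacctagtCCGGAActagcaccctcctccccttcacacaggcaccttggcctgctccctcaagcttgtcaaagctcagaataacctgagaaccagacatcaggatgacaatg
The windows lie at chr3:78877304-78877603 on the minus strand for Chrna1, chr9:95310066-95310365 on the plus strand for Chrnd, chr9:95325734-95326033 on the plus strand for Chrng, chr10:55015058-55015357 on the minus strand for Chrnb1 and chr10:55834105-55834404 on the minus strand for Chrne. Chrnd and Chrng are neighbouring genes on chromosome 9 in that annotation. CANNTG matches itself on both strands, and each CAGCTG is also counted as a CANNTG. Counted this way, the E-box occurred 3 times for Chrna1, once for Chrnd, 4 times for Chrng, 3 times for Chrnb1 and once for Chrne. Of all 33469 promoter windows of this length in the table, 72.1% held at least 1 E-box and 16.57% held 3 or more. The more specific CAGCTG stood 2 times in Chrna1, at -75 and -27 from the start, and 2 times in Chrng, at -26 and -3. It stood once in Chrnb1 at -41, once in Chrne at -116 and once in Musk at -79, and 15.06% of all windows held it, with 2 or more in 1.69%. The N-box was found in Chrnd at -115 and in Chrne at -54, and in 14.95% of all windows. Of the 10 genes, 8 had an entry in the promoter table, and the windows of Dok7 and Ache held 1 E-box each but neither CAGCTG nor the N-box. Rapsn and Lrp4 had no entry.

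Levels below are CPM, counts scaled to library totals adjusted by TMM, and are not compared between genes, since they are not divided by transcript length. Fold changes are on the log2 scale with SE, from edgeR's quasi-likelihood test over all 12 libraries, and a gene was called at a Benjamini-Hochberg adjusted p below 0.05 over the 14225 genes. Library totals ran from 22829692 to 38313704 counts. All 8 slow-fibre markers were lower and all 9 fast-fibre markers higher in set 2. Of 5 general skeletal muscle markers 1 was higher and 1 lower, where 39.5% of all tested genes were called. The summed slow markers were at 1666 to 5458 CPM in set 2 libraries and 91190 to 105700 CPM in set 1 libraries.

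**Figure D1:**
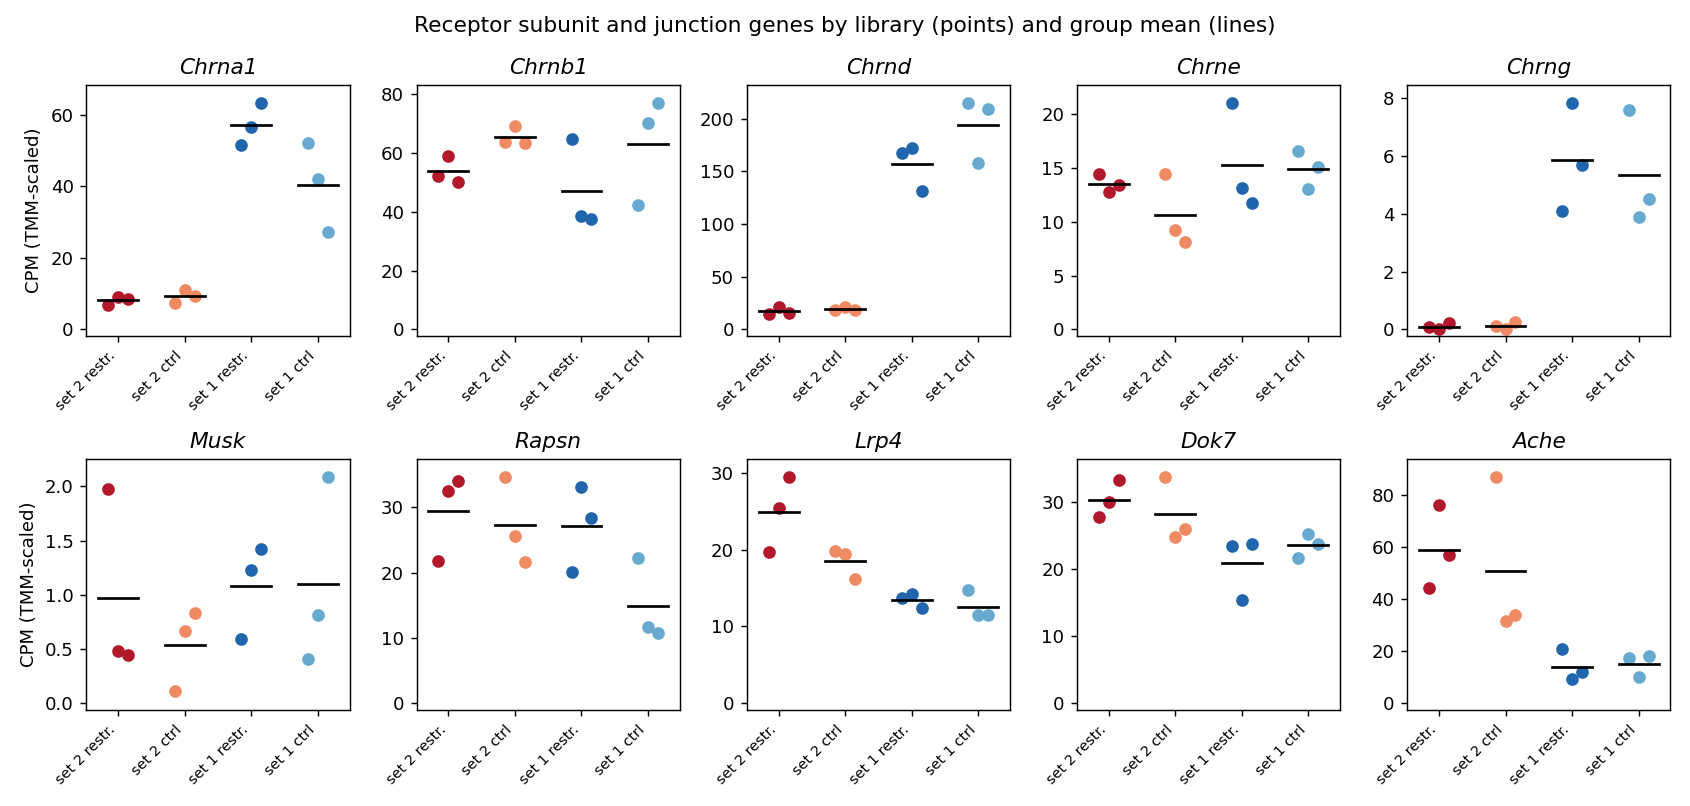
Level of each gene in CPM (vertical axes, linear) in the 12 libraries, in groups of 3 with the group mean as a line. Chrna1, Chrnd and Chrng are low in all set 2 libraries, and Ache and Lrp4 are high in them. Within a set, restriction and control libraries overlap at this TMM scaling for every gene except Chrnb1 in set 2.

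Between the sets, 3 of the 5 receptor subunit genes were lower in set 2, and the other two were not called. Chrnd measured 14.5, 20.8 and 15.8 CPM in set 2 restriction, 17.9, 21.2 and 18.6 CPM in set 2 control, 167, 172 and 132 CPM in set 1 restriction, and 215, 159 and 209 CPM in set 1 control. Every set 2 library lay far below every set 1 library, and the log2 fold change was -3.27 ± 0.14 (edgeR adjusted p = 9.8e-10), or 0.104 times the set 1 level. Chrna1, the subunit that carries the main acetylcholine binding site, measured 6.91, 8.91 and 8.38 CPM in set 2 restriction, 7.40, 10.9 and 9.40 CPM in set 2 control, 51.5, 56.5 and 63.2 CPM in set 1 restriction, and 52.1, 42.1 and 27.2 CPM in set 1 control. The sets did not overlap, with a log2 fold change of -2.47 ± 0.16 (edgeR adjusted p = 6.9e-08).

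Chrng, the fetal gamma subunit, was close to the detection limit in set 2. It had 2, 0 and 7 counts in set 2 restriction libraries, 2, 0 and 8 in set 2 control, 103, 204 and 140 in set 1 restriction and 226, 105 and 171 in set 1 control. The 0 counts in libraries 33 and 28 allow a level of up to 0.103 and 0.111 CPM (3 counts, counting error only), whereas set 1 libraries held 3.88 to 7.83 CPM. The log2 fold change was -5.58 ± 0.56 (edgeR adjusted p = 3.4e-06). With so few counts in set 2 this value moved between -6.29 and -5.28 when single libraries were left out, and stayed called each time.

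Chrne, the adult epsilon subunit, measured 12.8 to 14.5 CPM in set 2 restriction, 8.13 to 14.4 CPM in set 2 control, 11.7 to 21.1 CPM in set 1 restriction and 13.1 to 16.6 CPM in set 1 control. The sets overlapped, and its log2 fold change of -0.34 ± 0.18 was not called (95% interval -0.72 to 0.05, edgeR adjusted p = 0.15). It was called lower without control 23, at -0.49 (edgeR adjusted p = 0.024), and with library size alone as scaling, at -0.45 (edgeR adjusted p = 0.036). Chrnb1, the beta subunit, was not called either, at 0.12 ± 0.16 (95% interval -0.23 to 0.48, edgeR adjusted p = 0.58). It ran from 50.1 to 69.1 CPM in set 2 libraries and from 37.6 to 77 CPM in set 1 libraries, a wider range in set 1.

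Within a library, the gamma share of gamma plus epsilon counts does not depend on scaling. It was 0.462%, 0% and 1.61% in set 2 restriction libraries, 0.738%, 0% and 3.18% in set 2 control, 16.2%, 37.4% and 32.7% in set 1 restriction and 31.4%, 22.9% and 23.1% in set 1 control. The highest set 2 value, in control 29, had an exact 95% binomial interval of 1.38% to 6.16%, and the lowest set 1 value, in restriction 12, one of 13.5% to 19.4%. The share of counts is not a share of transcripts, since transcript lengths were not used. Set 1 restriction libraries fell on both sides of their controls. In bulk muscle, fewer junctions and less RNA per junction cannot be told apart, and neither can synaptic and extrasynaptic transcripts.

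**Figure D2:**
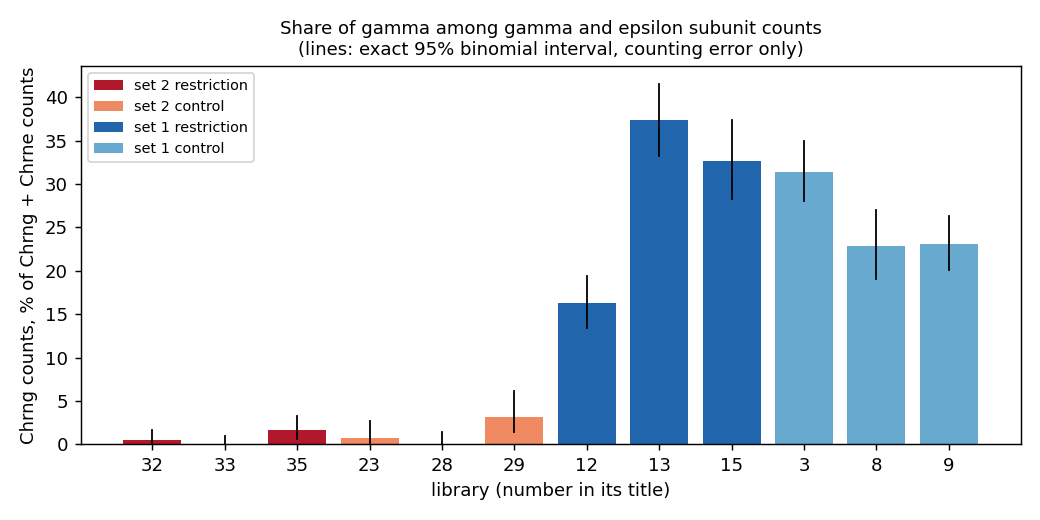
Percentage of Chrng among Chrng and Chrne counts (vertical axis, from 0) in each library (horizontal axis, by title number), with exact 95% binomial intervals. Set 2 libraries lie between 0% and 3.18%, and set 1 libraries between 16.2% and 37.4%.

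Organiser genes and acetylcholinesterase moved the other way or were not called. Ache measured 44.1, 76.1 and 57 CPM in set 2 restriction, 87.1, 31.4 and 33.9 CPM in set 2 control, 20.7, 9.33 and 12.1 CPM in set 1 restriction, and 17.2, 10 and 18 CPM in set 1 control. All set 2 libraries were above all set 1 libraries, with a log2 fold change of 1.91 ± 0.28 (edgeR adjusted p = 0.00011). Control 23 held the highest level at the TMM scaling and was well above the other set 2 controls. The lowest log2 fold change with a library left out was 1.58.

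Lrp4, the agrin receptor, measured 19.7, 25.4 and 29.5 CPM in set 2 restriction, 19.8, 19.4 and 16.1 CPM in set 2 control, 13.7, 14.2 and 12.4 CPM in set 1 restriction, and 14.8, 11.4 and 11.4 CPM in set 1 control. The sets did not overlap at the TMM scaling, and the log2 fold change was 0.72 ± 0.13 (edgeR adjusted p = 0.00061). On library totals alone set 2 control 29 (484 of 30146567 counts) fell just below set 1 control 3 (439 of 27059070). Dok7, the MuSK activator, was called higher by a smaller margin, at 0.40 ± 0.13 (edgeR adjusted p = 0.028), with 24.8 to 33.7 CPM in set 2 and 15.3 to 25.2 CPM in set 1. This call was lost without control 3, restriction 13, control 23 or restriction 35, at an edgeR adjusted p = 0.056 to 0.065, and with library size alone as scaling, at 0.29 (edgeR adjusted p = 0.083).

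Rapsn, the receptor-clustering scaffold, had a log2 fold change of 0.50 ± 0.21 and was not called (edgeR adjusted p = 0.071). It was called without control 3, at 0.71 (edgeR adjusted p = 0.0078), without restriction 32, at 0.60 (edgeR adjusted p = 0.040), and with no filter on low counts, at 0.51 (edgeR adjusted p = 0.045). Rapsn was also called when title numbers 20 apart were taken as pairs, which no label states, at 0.52 (edgeR adjusted p = 0.0032). Musk, the receptor tyrosine kinase, was the most weakly counted organiser, with 2 to 79 counts per library, and gave -0.59 ± 0.58 with a 95% interval of -1.84 to 0.67, too wide to place it.

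In all, 3 of the 10 genes rose and 3 fell in set 2, and 4 were not called, where 39.5% of all tested genes were called, 19.9% higher and 19.6% lower. At the TMM scaling, groups did not overlap for 5 of the 10, against 18.7% of all tested genes. The median log2 fold change was -0.11 over the 10 genes and -0.01 over all genes. With library size alone as scaling, the median of all genes moved to -0.11 and the calls over all genes were 2102 higher and 3384 lower, in place of 2832 and 2788. The 10 genes then had 2 higher and 4 lower.

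**Figure D3:**
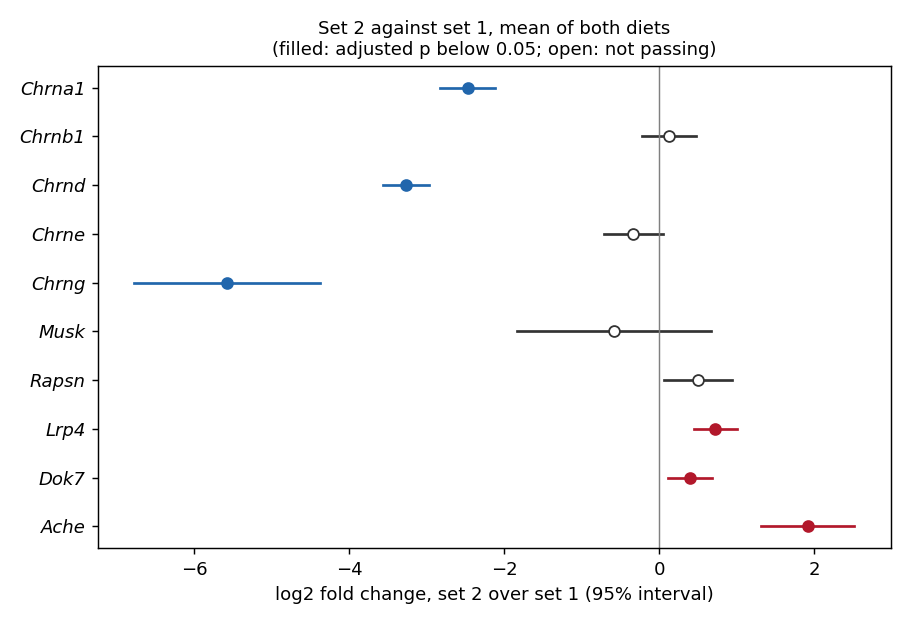
Log2 fold change of set 2 over set 1 (horizontal axis), averaged over both diets, for each gene (down the page), with 95% intervals; filled points passed at an adjusted p below 0.05. Chrna1, Chrnd and Chrng lie far below 0, and Ache, Lrp4 and Dok7 lie above it, with Dok7 nearest to 0.

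Other genes of the junction also moved in both directions between the sets. Of 30 listed, 27 were tested on a single row, and 7 rose, 8 fell and 12 were not called, with a median of 0.14. Among all tested genes 19.9% rose and 19.6% fell. The largest change was in Colq, the collagen tail of acetylcholinesterase, which measured 4.41 ± 1.06 CPM in set 2 restriction, 3.72 ± 0.73 in set 2 control, 82.4 ± 9.09 in set 1 restriction and 89.3 ± 14.2 in set 1 control (SD, n = 3). It fell by 4.40 on the log2 scale in set 2 (SE 0.16, edgeR adjusted p = 2.8e-10), while Ache, its partner, rose. Sntb1, a syntrophin of the dystrophin complex, rose by 3.85 ± 0.31, and Scn4a, the muscle sodium channel, by 1.53 ± 0.14. Erbb3, a neuregulin receptor, was at -1.18 ± 0.38 (edgeR adjusted p = 0.024), a call lost with limma-voom and when any of 5 libraries was left out (of 12 tried).

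Of 18 genes known to respond to denervation or inactivity, 17 were tested, 4 rose, 6 fell and 7 were not called in set 2. Of all tested genes 19.9% rose and 19.6% fell. Myog, the E-box factor myogenin, measured 15.9 ± 3.75 CPM in set 2 restriction, 26.9 ± 5.79 in set 2 control, 81.8 ± 19.3 in set 1 restriction and 111 ± 10.4 in set 1 control (SD, n = 3). Its log2 fold change of -2.20 ± 0.16 had the sign of those of Chrna1, Chrnd and Chrng. Myod1, another myogenic E-box factor, was higher in set 2 by 2.77 ± 0.34. Sln, the calcium pump regulator sarcolipin, was lower, at -6.55 ± 0.28, and Fbxo32, an atrophy-linked ubiquitin ligase, was higher, at 3.22 ± 0.48. The sets overlapped for Fbxo32, which spread widely in set 2, at 134 ± 55.1 CPM in restriction and 113 ± 94.2 CPM in control libraries (SD, n = 3). The list chosen here holds genes whose responses are known from other studies, and earlier results of these data were known when it was drawn up.

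**Figure D4:**
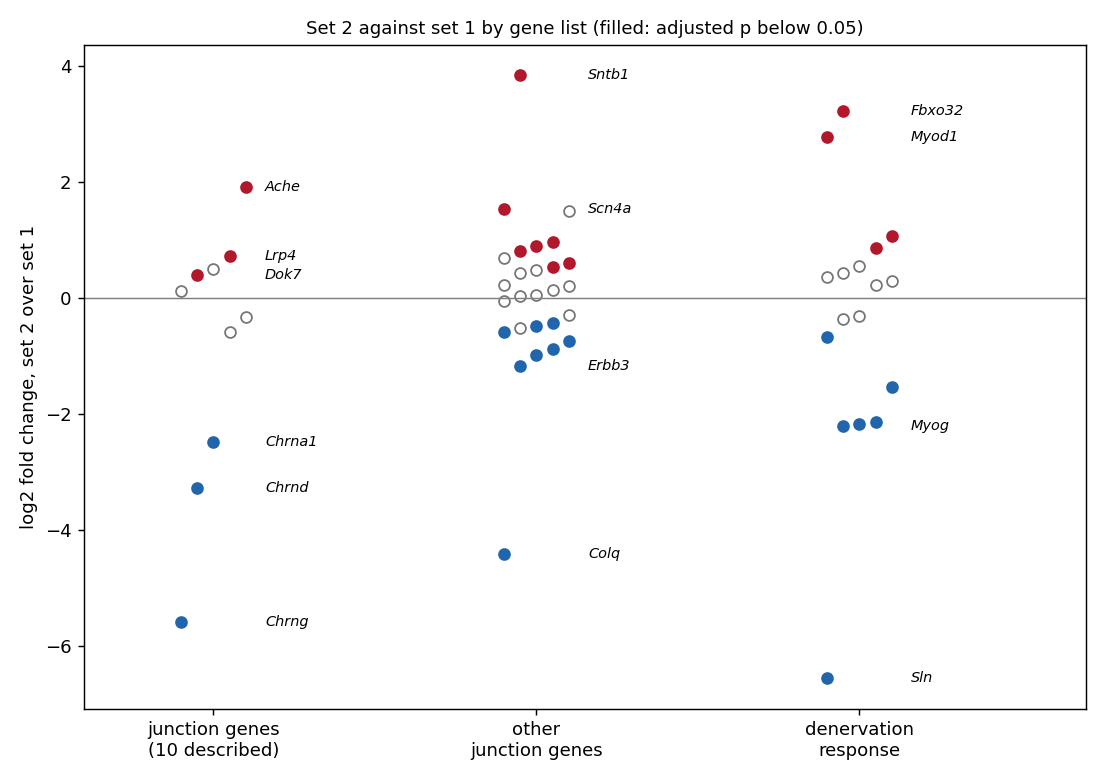
Log2 fold change of set 2 over set 1 (vertical axis) for the 10 genes, 27 other junction genes and 17 denervation-response genes, each point a gene; filled points passed at an adjusted p below 0.05 (red higher, blue lower). Called genes lie on both sides of 0 in every list, with Sln, Chrng and Colq lowest and Sntb1 highest among them.

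Markers of some other cells also differed between the sets, where 19.9% of all tested genes were higher and 19.6% lower in set 2. All 7 macrophage markers were lower in set 2, summing to 51.1 to 96.4 CPM in set 2 restriction, 54 to 103 CPM in set 2 control, 189 to 468 CPM in set 1 restriction and 200 to 334 CPM in set 1 control. Of 5 adipocyte markers 4 were lower, with Adipoq at 0.0724, Plin1 at 0.106, Cidec at 0.141 and Lep at 0.200 times the set 1 level. Their sum ran from 126 to 185 CPM, 142 to 259 CPM, 191 to 202 CPM and 242 to 274 CPM in the same order of groups, most of it from Fabp4, the marker that was not called (log2 fold change -0.05). Of 9 Schwann cell markers, cells that cap the nerve ending, 4 were higher and 2 lower, and their sums overlapped, at 80 to 148 CPM in set 2 restriction, 86.6 to 138 CPM in set 2 control, 101 to 127 CPM in set 1 restriction and 67.9 to 112 CPM in set 1 control. Of 5 satellite cell markers 1 was higher and 3 lower, with sums of 44.7 to 53.5 CPM, 36.6 to 52.6 CPM, 30.8 to 38.8 CPM and 31 to 40.5 CPM. The mean sums were 49.05, 42.35, 34.17 and 36.01 CPM, higher in set 2, so the sum did not follow the 3 lower markers. All 5 red blood cell markers tested were uncalled between the sets, and control 23 had the highest sum, 2003 CPM. All markers in these lists passed the filter on low counts except 1 red blood cell symbol with no row, and the part of these cells in the junction results was not tested.

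Maternal protein restriction changed none of the 10 genes at the threshold, in either set or averaged over both. The average takes the libraries of both sets as independent, which would not hold if a rat gave a library to each set. Averaged over the sets, where 0.00703% of all tested genes were called, 2 of the 10 had an unadjusted p under 0.05, against 7.83% of all genes. These were Rapsn, at 0.50 ± 0.21 (edgeR adjusted p = 0.58), and Chrnb1, at -0.35 ± 0.16 (edgeR adjusted p = 0.64). Limma-voom also called 0 of the 10 and DESeq2 0 of the 9 for which it gave an adjusted p (all except Musk), and a p that misses the threshold does not show that diet had no effect. The median over the 10 genes was 0.10, and that over all genes was -0.01.

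In set 1, where 0.00703% of all tested genes were called, 2 of the 10 had an unadjusted p under 0.05, against 7.54% of all genes, and Rapsn had the smallest. It measured 20.1, 33.2 and 28.4 CPM in restriction libraries, against 22.3, 11.6 and 10.7 CPM in controls. The groups overlapped through restriction 12 and control 3, and the log2 fold change was 0.88 ± 0.29 (95% interval 0.24 to 1.51, edgeR adjusted p = 0.53). Without control 3 it was 1.30 (edgeR adjusted p = 0.17), and over all fits that left out 1 library it ran from 0.68 to 1.30.

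Chrna1 in set 1 was at 57.1 ± 5.87 CPM in restriction libraries and 40.5 ± 12.5 CPM in controls (SD, n = 3), with restriction 12 just below control 3. Its log2 fold change was 0.50 ± 0.22 (edgeR adjusted p = 0.63) and 0.28 without control 9, the lowest of the controls. Chrnd had the opposite sign in the same libraries, at 157 ± 22.1 CPM in restriction and 194 ± 31.1 CPM in control libraries (log2 fold change -0.31 ± 0.18, edgeR adjusted p = 0.70). The log2 ratio of Chrnd to Chrna1 counts was therefore 1.70, 1.61 and 1.06 in set 1 restriction libraries and 2.05, 1.91 and 2.95 in set 1 controls, which did not overlap. In set 2 this ratio overlapped between the diets, at 1.07, 1.22 and 0.91 in restriction libraries and 1.27, 0.95 and 0.99 in controls. The Chrnd ratio was looked at without a test. Log2 ratios of Chrne and of Chrnb1 to Chrna1 counts, also looked at, overlapped between the diets in both sets. In set 1, restriction 12 lay above control 3 for Chrne (-1.29 and -1.65) and for Chrnb1 (0.33 and -0.31). Of all tested genes, 17.6% had levels without overlap between the diets of set 1. That share is for single genes, and none was computed for ratios.

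The other subunits in set 1 did not pass. Chrnb1 measured 64.7, 38.7 and 37.6 CPM in restriction libraries and 42.1, 70.2 and 77 CPM in controls, so that restriction 12 and control 3 each sat with the opposite diet (log2 fold change -0.43 ± 0.23, edgeR adjusted p = 0.69). Chrne and Chrng were at 0.04 ± 0.25 and 0.14 ± 0.58. Lrp4, Dok7, Ache and Musk were at 0.10 ± 0.19, -0.18 ± 0.19, -0.10 ± 0.39 and -0.03 ± 0.81, none of them called. Mitochondrial tRNA rows took 4.12% to 4.78% of counts in set 1 restriction libraries and 2.22% to 2.88% in set 1 controls. In set 2 they took 1.62% to 3.10% in restriction libraries and 2.54% to 5.83% in controls, the highest in control 23. Without those rows and the mitochondrial rRNA rows, 0 of the 10 genes were called. The sum of the fast-fibre markers also differed without overlap in set 1, at 7504 to 9019 CPM in restriction libraries and 3251 to 6587 CPM in controls. Of these markers 0 of 9 were called, 6 were above 0 and 3 below. The 3 below were Myh4 (-3.47 ± 1.06), Pvalb (-1.87 ± 1.01) and Actn3 (-1.10 ± 1.00). Set 1 controls spread widely for Myh4, at 140 ± 221 CPM (SD, n = 3). Of 9 Schwann cell markers 0 were called for diet, and averaged over the sets all 9 were above 0, with a median log2 fold change of 0.37. The part of these markers in the diet values was not tested.

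In set 2, where 0% of all tested genes were called, Lrp4 was 1 of 10 with an unadjusted p under 0.05, against 8.59% of all genes. It measured 24.9 ± 4.90 CPM in restriction libraries and 18.5 ± 2.03 CPM in controls (SD, n = 3), and restriction 32 lay below control 23. On library totals alone restriction 32, with 588 of 30241996 counts, lay above every set 2 control, the highest being control 28 with 523 of 27453721. The diets then did not overlap for Lrp4. Its log2 fold change was 0.43 ± 0.19 (95% interval 0.03 to 0.83, edgeR adjusted p = 0.56), and 0.30 without restriction 35. At the TMM scaling Chrnb1 was the one gene of the 10 without overlap, against 12.7% of all tested genes in this set. It measured 52.3, 59 and 50.1 CPM in restriction libraries and 63.8, 69.1 and 63.4 CPM in controls. Control 23 had the lowest TMM factor of the 12 libraries, 0.815. On library totals alone the share of Chrnb1 in control 23, 1190 of 22869995 counts, fell below that in restriction 33, 1722 of 29288433. The diets then overlapped for Chrnb1. Its log2 fold change was -0.28 ± 0.23 (edgeR adjusted p = 0.73). Chrna1, Chrnd and Chrne were at -0.20 ± 0.23, -0.18 ± 0.18 and 0.36 ± 0.25. The diets overlapped for Chrne through control 23. On library totals alone they did not, with 269 of 22869995 counts in control 23 and 373 of 29288433 in restriction 33.

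Rapsn and Dok7 in set 2 were at 0.12 ± 0.29 and 0.11 ± 0.19. Ache was at 0.22 ± 0.38, with control 23 at 87.1 CPM above every restriction library at the TMM scaling. On library totals alone restriction 33 (2220 of 29288433 counts) lay above control 23 (1624 of 22869995). Musk, at 0.81 ± 0.84, rested on restriction 32, with 59 counts against 14 in each of restriction 33 and 35, and was -0.25 without it. Chrng had 9 counts in the 3 restriction libraries and 10 in the 3 controls, and its fold change (-0.39 ± 0.98) cannot be read at this depth. Red blood cell markers summed to 299.9 to 397 CPM in set 2 restriction libraries and 606 to 2003 CPM in set 2 controls, with 0 of 5 called, and their part in the set 2 values was not tested.

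**Figure D5:**
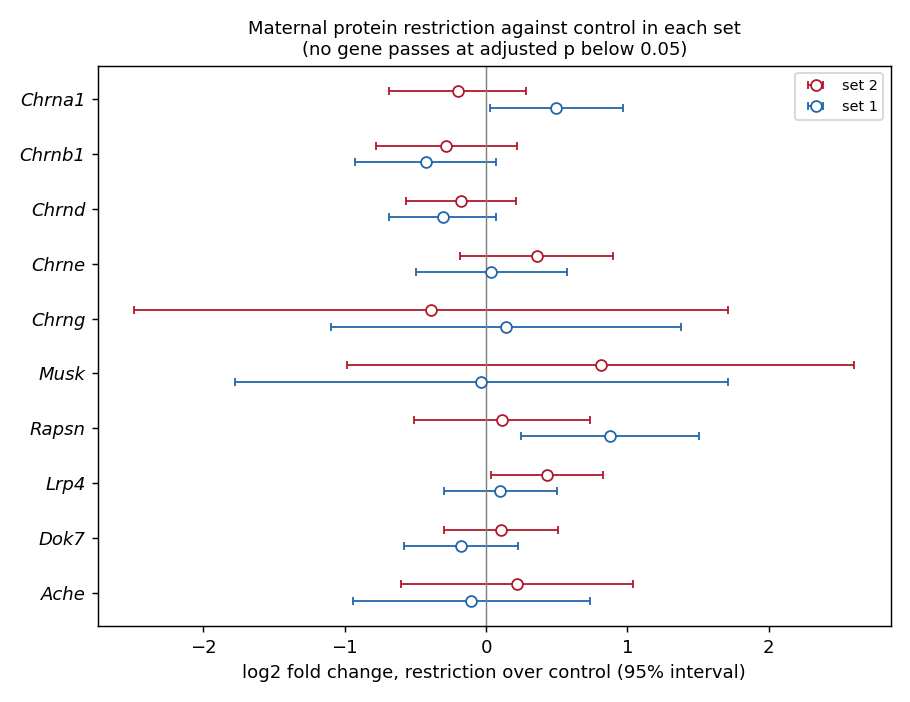
Log2 fold change of restriction over control (horizontal axis) for each gene (down the page) in set 2 and set 1, with 95% intervals. The intervals include 0 for most genes; those of Rapsn and Chrna1 in set 1 and Lrp4 in set 2 do not, and no gene passed after adjustment over all genes.

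The restriction effect did not differ between the sets at the threshold for any of the 10 genes, and 0% of all tested genes passed that test. At an unadjusted p under 0.05 the difference held for 1 of the 10, Chrna1, and for 9.5% of all genes. Chrna1 had a difference of -0.70 ± 0.31 (set 2 minus set 1, edgeR adjusted p = 0.52), followed by Rapsn at -0.76 ± 0.41 (edgeR adjusted p = 0.57). Among the 27 other junction genes none passed for diet. In set 2 the smallest p values among them were those of Scn4a, at 0.65 ± 0.19 (edgeR adjusted p = 0.46), and Lamb2, a laminin chain of the synaptic basal lamina, at 0.43 ± 0.14 (edgeR adjusted p = 0.50). The difference between sets was smallest in p for Scn4a, at 0.93 ± 0.27 (edgeR adjusted p = 0.42). Averaged over the sets it was Pdzrn3, a ubiquitin ligase that acts on MuSK, at 0.38 ± 0.13 (edgeR adjusted p = 0.49). Of the 17 denervation-response genes none passed either, and Myog had the smallest p, at -0.60 ± 0.15 averaged over the sets (edgeR adjusted p = 0.38).

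Chrna1 was the reference in a search for genes of like profile. The search covered 11921 genes with a mean of at least 1 CPM that are not among the 10. Chrna1 does not stand for all 10, since its log2 CPM had a Pearson r of -0.90 with Ache and 0.95 with Chrnd. Over the 12 libraries, the log2 CPM of Lmod2 (Pearson r = 0.99), Fcgrt (0.98), Anxa7 (0.98), Cd276 (0.98) and Actr3b (0.97) followed it most closely, and these values rest on the difference between the sets. After the 4 group means were taken out, the closest were Dcun1d3 (0.95), Frmd6 (0.95), Acp6 (0.94), Col11a2 (0.93) and Arhgef10 (0.92). Chrna1, Chrnd and Chrng had values of 0.94 to 0.95 with each other over the 12 libraries, which also rest on the difference between the sets. With the group means taken out, Chrna1 had 0.13 with Chrnd and -0.02 with Chrng, and Chrnd had -0.29 with Chrng. These are descriptions of 12 libraries that share their scaling, and the highest of 11921 values is large in any such search.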

How the data were processed

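RNA-seq counts of 12 skeletal muscle libraries were analysed. Per the labels' protocols, Trizol was used for extraction and a TruSeq RNA kit for the libraries. That kit keeps no strand, so reads of overlapping or antisense genes are not separable. Per the submitters' processing notes, Trimmomatic, HISAT2, featureCounts and DESeq2 were used with the build Rnor_6.0. Their versions are not stated. The table that the authors deposited holds raw counts per gene, whole numbers summing to 22829692 to 38313704 per library. A second deposited table, these counts rescaled by a constant in each library, was left aside.

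Genes were kept with filterByExpr over the 4 groups, which left 14225 of 24648 rows. EdgeR 4.0.16 in R 4.3.3 with TMM was used for quasi-likelihood tests on all 12 libraries, each of the 4 groups having its own mean, at a threshold of 0.05. Contrasts were restriction minus control in each set, their mean and difference, and set 2 minus set 1. SE is the log2 fold change divided by the root of its F. CPM use TMM-scaled totals, and log2 CPM a prior count of 2. The procedure was also run on simulated counts of independent libraries, which held no shared animals or litters. Replicate libraries all differed by more than sampling noise (chi-square per degree of freedom 24.5 to 147). Binomial intervals and the floors of 3 counts cover counting error only, with no molecular identifiers. The 95% intervals of log2 fold changes use the SE above and so include library-to-library spread.

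The 10 genes and all lists were chosen with earlier results of these data known. All 10 genes are named; of each other list, up to 4 called genes by size of change are named, or, where none was called, up to 2 by smallest p. Syne1, on 2 rows, was left out. Promoter sequences and gene neighbours are from RefSeq (GRCr8). Its coordinates are given for the promoters alone, since the counts use another build. Alternatives were DESeq2 1.42.0, limma-voom (limma 3.58.1), 2 other scalings, 2 other filters, a table without mitochondrial tRNA and rRNA, fits within a set, a replicate block and leaving out each library.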

Additional observations from a re-analysis of the deposited data

How the results depend on the processing

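Of the 10 genes, 6 were called between the sets and 0 in any diet comparison, and the diet counts stayed at 0 in all alternatives run. Some of these rest on 9 genes: Musk was filtered out at a mean of at least 1 CPM and had no adjusted p from DESeq2 for the average over the sets, and Chrng was filtered out in the fit of set 2 libraries alone. Between the sets, 5 to 7 were called with a library left out. Chrna1, Chrnd, Chrng, Lrp4 and Ache were called in all 12 of these fits, Dok7 in 8.

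Over all genes, restriction averaged over the sets gave 55 calls with DESeq2, 0 with limma-voom, 11 with no filter on low counts and 0 without mitochondrial rows, in place of 1, and 0 to 8 with a library left out, the highest without control 23. In set 1 the counts were 38, 3, 6 and 0 in the same order, and 5 from set 1 libraries alone, in place of 1, and 1 to 22 with a library left out, again highest without control 23. In set 2 DESeq2 gave 40 and no filter 3, in place of 0, with 0 to 4 on leaving out a library. The difference between sets gave 30 with DESeq2 and 1 with no filter, in place of 0, with 0 to 1. After adjustment edgeR and limma-voom both called 0 genes in set 2 and for the difference. At an unadjusted p under 0.05, limma-voom had 1162 and 1284 genes in these comparisons and edgeR 1222 and 1351. Causes were not tested.

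Uncalled diet values changed sign in some settings. Averaged over the sets, Dok7 was 0.029 with library size alone. In set 1, Chrne was -0.0066 with limma-voom, and Musk 0.10 with limma-voom and 0.032 with library size alone. With a library left out, the average over the sets ran from -0.14 to 0.38 for Ache, -0.83 to 0.59 for Chrng, -0.088 to 0.055 for Dok7 and -0.14 to 0.82 for Musk. In set 1 it ran from -0.49 to 0.12 for Ache, -0.26 to 0.20 for Chrne, -0.12 to 0.49 for Chrng, -0.28 to 0.0054 for Dok7, -0.42 to 0.83 for Musk and -1.63 to 0.49 for Myh8, a denervation gene that did not pass. In set 2 it ran from -0.025 to 0.86 for Ache, -1.80 to 1.05 for Chrng, -0.25 to 1.26 for Musk and -0.025 to 0.33 for Rapsn. For the difference between sets it ran from -0.023 to 0.44 for Chrnb1, -0.040 to 0.26 for Chrnd, -1.94 to 0.91 for Chrng, -0.22 to 1.30 for Musk and -0.14 to 2.02 for Myh8.

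No label says that title numbers 20 apart mark an animal. Same-numbered libraries correlated at 0.08 to 0.18 in their deviations from group means, each best with its own number, a hint from the data and not the design. With a replicate block on these numbers, 7 of the 10 genes were called between the sets in place of 6, Rapsn being added at 0.52 (edgeR adjusted p = 0.0032), with 2906 genes higher and 2896 lower in place of 2832 and 2788, and 0 for the difference.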

Other observations

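The nicotinic receptor subunits of the neuronal type, encoded by 11 other genes, were barely counted. None passed the filter on low counts, and Chrna3, Chrna6 and Chrna9 had 0 counts in all 12 libraries. Chrna4 had the most, with 44 counts over all libraries and 16 in its highest library, at 0.548 CPM. Chrnb2 had 22 counts and Chrna10, Chrna7 and the other subunits had fewer.

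After the group means were taken out, pairs of the 10 junction genes went in both directions. Of 45 pairs, 23 had a positive correlation over the 12 libraries, with a median of 0.05. Chrne and Ache (0.79) and Rapsn and Lrp4 (0.78) had the highest values, and Musk with Lrp4 (-0.77) and Chrnb1 with Rapsn (-0.75) the lowest.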
